A study of Mus musculus with 6 samples.

Results

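The cadherin superfamily was examined in sciatic nerves of newborn mice with and without a labelled deletion of *Adar1* in neural crest (NC) cells. Members were taken from the deposited gene table by symbol and not by their values: numbered cadherins (*Cdh*), protocadherins (*Pcdh*), *Fat1* to *Fat4*, *Dchs1*, *Dchs2* and *Celsr1* to *Celsr3*. This gave 62 of the 59485 genes in the table, and 56 of them reached a mean of at least 10 in at least 1 genotype, as did 25802 genes in all. The symbols of the *Pcdha* and *Pcdhg* genes share 1 entry of the table, which counts here as 1 member.

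RNA-seq was done on whole sciatic nerves at P4, with 3 control animals and 3 mutant animals and 1 library from each. The labels call the controls wild-type, a name that the methods use for *Adar1fl/fl;R26R* or *Adar1fl/+;R26R* animals without Cre. Mutants were *Ht-PA-Cre; Adar1fl/fl;R26R*, in which Cre under the human tissue plasminogen promoter acts on the floxed *Adar1* alleles of NC cells, and their R26R allele marks NC derivatives with YFP. By these names Cre was present in the mutants only, and its own effect cannot be told apart from that of the deletion. The paper also uses the word controls for wild-type and heterozygous animals together, and its heterozygous animals carry Cre. The nerve also holds endothelial and blood cells, which do not derive from the NC, and each value is a sum over all cells.

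Cadherins are calcium-dependent adhesion proteins of the cell surface. Classical cadherins hold cells together at adherens junctions, where their cytoplasmic tails bind catenins that connect them to actin. Protocadherins are a large group with roles in recognition between cells, above all in the nervous system, while Fat, Dachsous and Celsr proteins are giant cadherins that orient cells within a tissue (planar cell polarity). In peripheral nerve, E-cadherin (*Cdh1*) forms autotypic junctions between the membrane layers of 1 myelinating Schwann cell (SC), N-cadherin (*Cdh2*) serves contacts of SC precursors and axons, and VE-cadherin (*Cdh5*) seals the vessels.

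Values are reads per gene divided by a size factor per library, with 50938349 to 78250094 reads on genes in a library and a single read worth 0.727 to 1.27. Fold changes are on the scale of log2(value + 1), mutant minus control, from limma, and understate changes of genes with few reads. The threshold was a 2-fold change together with an unadjusted p of at most 0.05, and "rose" and "fell" are used of genes past it. Adjusted p-values cover all 25802 genes tested, and an exact permutation test of 3 against 3 libraries cannot go below a p of 0.1. The labelled deletion was not seen in the table: *Adar* was at 1602, 2066 and 1133 in control replicates but at 11768, 9311 and 9773 in mutant ones, and as the table gives 1 value per gene, the deleted segment cannot be told from the rest. Groups are therefore named by their labels, as control-labelled and mutant-labelled libraries. *Xist* had reads in control replicates 1 and 3 and mutant replicate 2, and the Y-linked *Ddx3y* in the other 3 libraries.

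Marker lists checked the tissue. Of 8 SC markers, 3 fell (*Mbp*, *Erbb3* and *S100b*) and *Gap43* rose, and their summed value, most of it *Mbp*, was 1414030 to 1755250 in the control-labelled and 39313 to 170214 in the mutant-labelled libraries. *Sox10*, the transcription factor of the SC lineage, had values of 12618, 11719 and 10919.5 against 9171, 5838 and 6828, a log2 fold change of -0.71 that did not pass. It missed the 2-fold limit, but all mutant-labelled values lay below the controls (adjusted p = 0.00874 in limma). The other 3 markers did not pass either, with *Ncam1* at 0.28, *L1cam* at -0.24 and *Ngfr* at 6103, 5805 and 6499.5 against 6675, 5641 and 6088. Of 10 skeletal muscle markers, 7 rose, with sums of 6099 to 32123 and 40958 to 309970. *Pax7* was at 0 in the 3 controls and mutant replicate 1, and *Myod1* in control replicate 2. Of 10 endothelial markers, 1 rose (sums of 15242 to 22716 and 23452 to 32431), and of 6 fibroblast markers, 3 fell. The neuron list (3 of 4 genes tested) had 2 genes higher at low levels (sums of 127 to 231 and 217 to 326). Perineurial and macrophage lists of 6 genes had 1 gene higher and 1 lower each, and erythroid genes 3 of 3 lower. Keratinocyte genes had 2 of 4 higher from few reads, none by adjusted p, and their sums overlapped (211 to 253 and 173 to 254). The pericyte (6) and adipocyte (3) lists had none past the threshold.

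Of the 56 members tested, 9 rose and 11 fell. Among all genes tested, 24.2% passed the threshold, 13.9% as higher and 10.4% as lower, so the share of higher members (16.1%) lay near the background and that of lower members (19.6%) above it, without a test of that difference. With an adjusted p at or under 0.05 the counts were 8 and 10, where 19.9% of all genes passed in either direction. The median log2 fold change was -0.43 over the members and 0.03 over all genes, and 34 of the 56 members were below 0, against 48.4% of all genes. The genotypes did not overlap in 36 members, with the mutant-labelled values above in 14 and below in 22, beside 25.9% and 23.3% of all genes (49.2% together). By subfamily, all 3 *Celsr* genes and 6 of 16 *Pcdhb* genes were among the members that fell. The members that rose came from the nonclustered protocadherins, the tip link cadherins, *Dchs2* and the cadherins *Cdh15*, *Cdh17* and *Cdh22*. Type I and type II cadherins had 1 gene higher and 1 lower each, and differences between subfamilies were not tested.

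**Figure D1:**
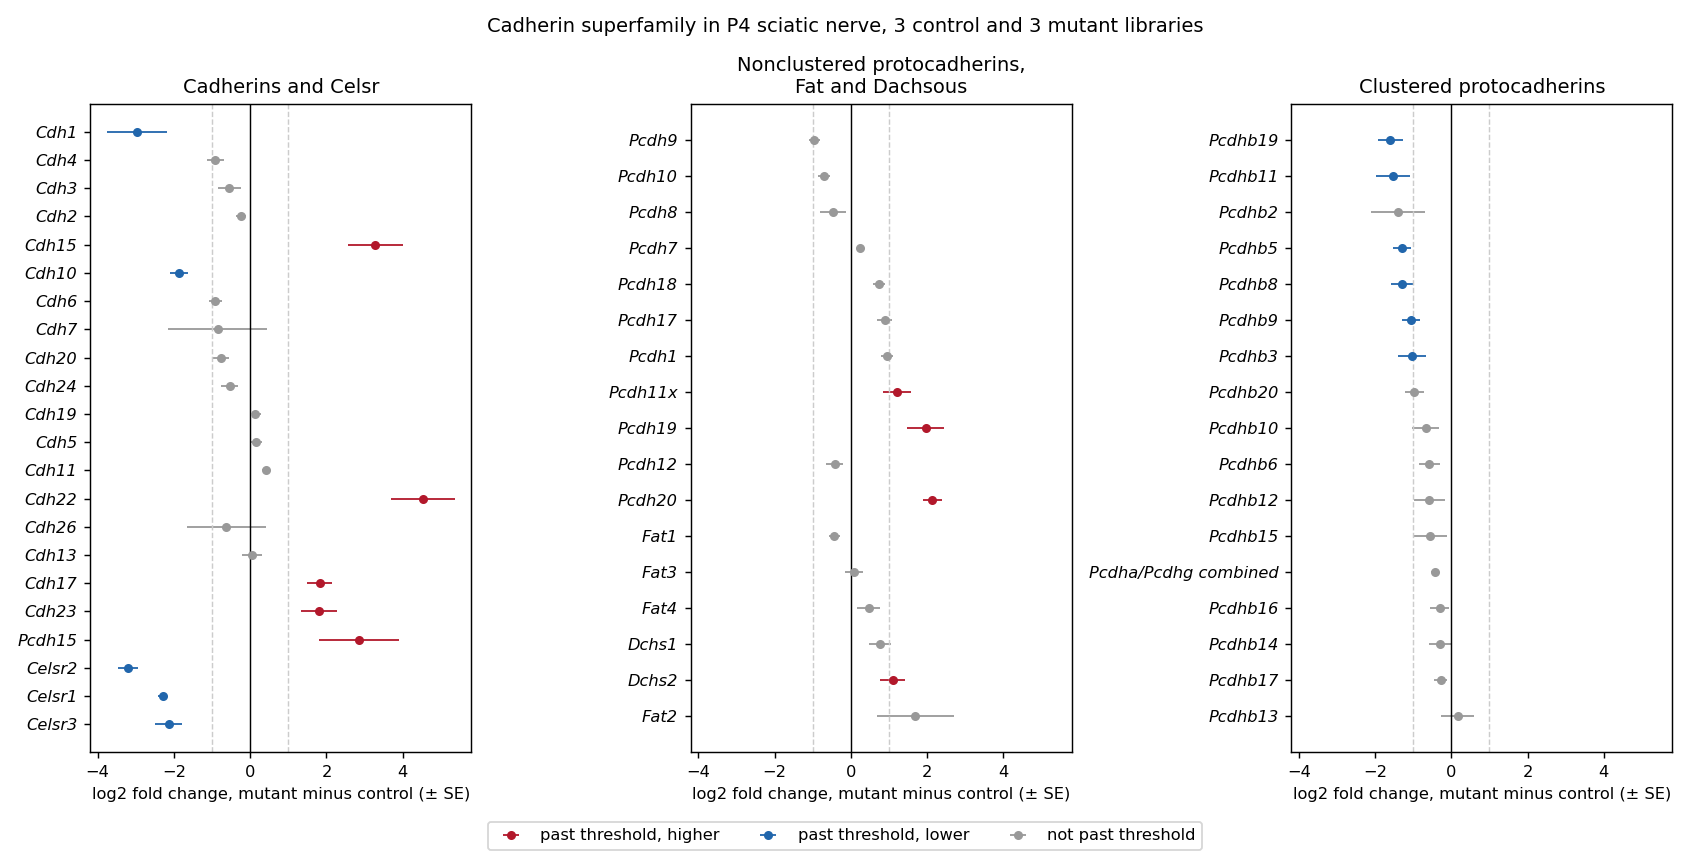
Log2 fold change of each tested member (mutant minus control, points) with its standard error (bars), from limma on 3 control-labelled and 3 mutant-labelled libraries. Dashed lines mark a 2-fold change and colours mark the 9 members that rose and the 11 that fell. All 3 *Celsr* genes lie at the left of the first panel, and the clustered protocadherins lie left of 0 with the exception of *Pcdhb13*.

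All 3 *Celsr* genes fell, and *Celsr2* had the largest fall of any member with all libraries. They encode multi-pass cadherins of the adhesion G protein-coupled receptor class, the mammalian relatives of fly Flamingo, which act in planar polarity and in axon guidance. *Celsr2* (GSMG0025928, chromosome 3, 108390848 to 108415502) was at 18749, 21952 and 21392 in the control-labelled libraries (here and below in the order of replicates 1 to 3) and at 3662, 1629 and 1889 in the mutant-labelled ones. The highest mutant-labelled value was well under the lowest control-labelled one. *Celsr2* fell by 3.20 on the log2 scale (standard error 0.26, adjusted p = 6.24e-05), its mean being 8.65-fold lower. Without mutant replicate 1, *Cdh1* had the larger fall (-3.82), as no left-out library took *Celsr2* below -3.56. *Celsr1* (GSMG0014346, chromosome 15, 85898758 to 86033777) had values of 2745, 3383 and 3498 in the control-labelled and 633, 657 and 655 in the mutant-labelled libraries. It fell by 2.30 (standard error 0.13, adjusted p = 9.69e-06), the smallest adjusted p among the members, and its mutant-labelled values had a mean of 648 ± 13.4 (SD, n = 3). *Celsr3* (GSMG0040106, chromosome 9, 108826045 to 108852969) had fewer reads, with values of 569.7, 709.6 and 724 against 263, 90.7 and 141, and fell by 2.14 (standard error 0.35, adjusted p = 0.00221). In whole nerve, fewer cells of a type and less RNA per cell cannot be told apart. Divided by the value of *Sox10* in the same library, *Celsr2* was at 1.49, 1.87 and 1.96 in the control-labelled and 0.399, 0.279 and 0.277 in the mutant-labelled libraries. *Celsr1* was at 0.218, 0.289 and 0.32 against 0.069, 0.113 and 0.0959. The groups did not overlap on that scale either (exact permutation test, two-sided, p = 0.1 for each, the smallest possible).

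The windows around the start sites of *Celsr2* and *Celsr3* are shown because *Celsr2* had the largest fall of any member with all libraries and *Celsr3* is a close relative. They run from 250 bases before to 50 bases after the RefSeq start (build GRCm38.p6, the same as mm10), 5′ to 3′ on the gene's strand, and capitals mark the E2-box CAGGTG or its reverse complement CACCTG, the element that Snail and Zeb proteins bind in the *Cdh1* promoter. *Pcdh20* is shown beside them as the member with the smallest adjusted p among those that rose. The window of *Celsr2* is chr3:108415530-108415829 (minus strand), that of *Celsr3* chr9:108825795-108826094 (plus strand) and that of *Pcdh20* chr14:88471347-88471646 (minus strand).
Celsr2: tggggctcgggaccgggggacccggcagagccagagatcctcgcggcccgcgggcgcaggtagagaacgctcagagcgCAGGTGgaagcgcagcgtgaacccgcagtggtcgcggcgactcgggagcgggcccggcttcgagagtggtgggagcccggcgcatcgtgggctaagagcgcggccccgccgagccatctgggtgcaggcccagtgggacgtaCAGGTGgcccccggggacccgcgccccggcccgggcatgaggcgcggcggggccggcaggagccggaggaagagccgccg
Celsr3: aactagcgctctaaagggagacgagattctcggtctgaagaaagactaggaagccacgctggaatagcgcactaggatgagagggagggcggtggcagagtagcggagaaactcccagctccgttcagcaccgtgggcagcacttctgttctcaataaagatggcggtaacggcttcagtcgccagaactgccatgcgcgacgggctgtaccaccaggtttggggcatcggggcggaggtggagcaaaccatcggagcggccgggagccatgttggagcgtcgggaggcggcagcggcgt
Pcdh20: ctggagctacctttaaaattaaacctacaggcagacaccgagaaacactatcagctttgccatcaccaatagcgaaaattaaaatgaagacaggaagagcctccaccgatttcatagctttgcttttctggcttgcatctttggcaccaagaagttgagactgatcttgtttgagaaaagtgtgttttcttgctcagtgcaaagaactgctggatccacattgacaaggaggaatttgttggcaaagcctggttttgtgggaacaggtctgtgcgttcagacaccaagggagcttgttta
The *Celsr2* window held 2 E2-boxes, starting 172 and 30 bases before the start site, and the others held none. Windows were found for 29 members, and 5 of them held at least 1 E2-box (*Celsr2*, *Fat1*, *Pcdh7*, *Pcdh15* and *Cdh7*). By call, 1 of the 3 fallen members with a window held one, as did 1 of the 7 with a window that rose and 3 of the 15 with a window that did not pass. The other 33 members, with *Cdh1* and *Celsr1* among them, had no window, so 8 of the 11 members that fell were not searched. Of all 32851 windows, 20.2% held one. A match is a description of these letters and not a site.

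Of 5 type I classical cadherins, 1 rose (*Cdh15*) and 1 fell (*Cdh1*), beside 13.9% and 10.4% of all genes, and 3 did not pass. *Cdh1* (GSMG0037757, chromosome 8, 106603350 to 106670247) had values of 13452, 15155 and 19689.9 in the control-labelled and 6576, 475 and 2673 in the mutant-labelled libraries. The groups did not overlap, but the mutant-labelled values were spread over more than a 10-fold range, which made the 95% confidence interval wide (-4.75 to -1.19 around -2.97, standard error 0.78, adjusted p = 0.0187). Without mutant replicate 2 the change was -1.92, and without mutant replicate 1 it was -3.82. On recovered reads, edgeR gave -2.30 and DESeq2 -2.31. The 3 mutant-labelled libraries took the same order in *Cdh1*, *Celsr2*, *Celsr3* and *Cdh10*, in *Sox10* and in the summed SC markers, with replicate 1 highest and replicate 2 lowest. Of the other members tested, *Cdh20*, *Pcdh1*, *Pcdhb6* and *Fat2* had this order too. The part of SC content in these results was not tested. Relative to *Sox10*, *Cdh1* was at 1.07, 1.29 and 1.80 against 0.717, 0.0813 and 0.392, again without overlap (p = 0.1, exact permutation test, two-sided).

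*Cdh2* had values of 2928, 3214 and 3279.5 against 3127, 2667 and 2212, which overlapped, with a change of -0.25 (95% confidence interval -0.56 to 0.06, adjusted p = 0.194). The ratio of *Cdh1* to *Cdh2* within a library was thus 4.59, 4.72 and 6.004 in the control-labelled and 2.10, 0.178 and 1.21 in the mutant-labelled libraries. *Cdh4* (R-cadherin) had 553, 661 and 536 against 407, 295 and 239, all mutant-labelled values below the controls. Its change of -0.92 (standard error 0.22, adjusted p = 0.0131) missed the 2-fold limit, which it passed without mutant replicate 1 (-1.12). *Cdh3* (P-cadherin) overlapped between the genotypes at -0.55 (adjusted p = 0.195).

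*Cdh15* (M-cadherin, GSMG0037947, chromosome 8, 122847966 to 122867397), which joins myoblasts and muscle satellite cells, was the type I gene that rose. Its values were 22.2, 5.67 and 26.6 in the control-labelled and 179, 70.4 and 307 in the mutant-labelled libraries, 3.28 on the log2 scale (standard error 0.71, adjusted p = 0.00813), 2.64 without control replicate 2 and 2.67 with 10 in place of 1 added before the log. Mutant replicate 3 was highest and control replicate 2 lowest both in *Cdh15* and in the summed muscle markers. Control replicate 3 had more *Cdh15* than control replicate 1 but a smaller muscle sum (24685 against 32123). Per 1000 of the summed muscle markers, *Cdh15* was at 0.691, 0.93 and 1.08 against 1.91, 1.72 and 0.989, which overlapped (p = 0.2, exact permutation test, two-sided). The part of muscle content in this result was not tested.

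**Figure D2:**
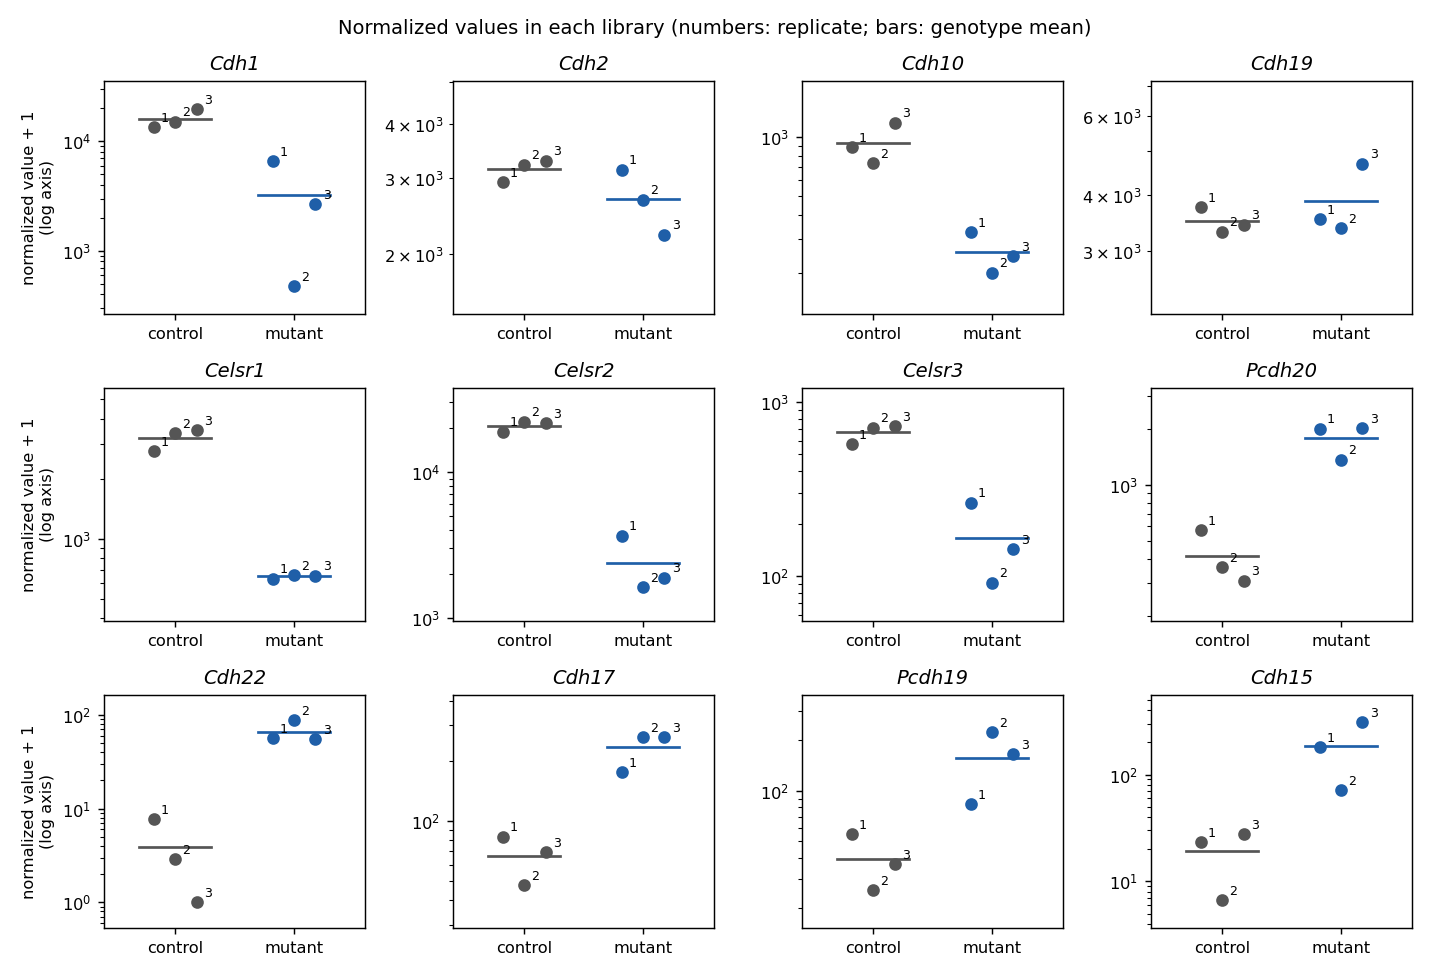
Normalized value plus 1 (log axis, a range of its own in each panel) of 12 members in each library, with control-labelled libraries in grey and mutant-labelled ones in blue. Numbers are replicates and horizontal bars are genotype means. *Celsr1*, *Celsr2*, *Celsr3*, *Cdh1* and *Cdh10* lie lower in the mutant-labelled libraries and the 5 genes from *Pcdh20* to *Cdh15* higher, while *Cdh2* and *Cdh19* overlap.

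Of 13 type II cadherins, 9 were tested, 1 rose and 1 fell (11.1% each, beside 13.9% and 10.4% of all genes). *Cdh10* (GSMG0013000, chromosome 15, 18818947 to 19014235), best known from the brain, had values of 885, 736 and 1185 in the control-labelled and 323, 201 and 244 in the mutant-labelled libraries. The groups were well apart, at -1.86 on the log2 scale (standard error 0.24, adjusted p = 0.000596) and a mean 3.65-fold lower. The counting could split its reads with 3 other genes on its strand. The same limit holds for other genes past the threshold, among them *Pcdh15* (3 other genes), *Pcdh11x* (5), *Fzd3* (3), *Prickle2* (9) and *Ctnna3* (12). *Cdh6* (K-cadherin), a gene of migrating NC cells and kidney, had 869, 736 and 694 against 374, 383 and 464, and *Cdh20* 622, 797 and 835 against 520.1, 331 and 491. Both lay lower in all mutant-labelled libraries without passing the 2-fold limit, at -0.91 and -0.76 (adjusted p = 0.00325 and 0.024), and *Cdh6* passed it without mutant replicate 3 (-1.01). *Cdh24* overlapped at -0.54 (adjusted p = 0.101).

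*Cdh22* (GSMG0023885, chromosome 2, 165111507 to 165234855), first described in pituitary and brain, had the largest rise of any member, from few reads. The control-labelled libraries held 6, 2 and 0 reads and the mutant-labelled ones 76, 90 and 55, which are values of 6.66, 1.89 and 0 against 55.3, 86.8 and 54.4. The groups did not overlap, and the change was 4.53 (standard error 0.84, adjusted p = 0.00385). Its size depends on the value added before the log: it was 2.56 with 10 and 5.86 with 0.1 in place of 1. With 10 added, *Cdh15* had the larger change (2.67). Leaving out control replicate 3 or 1 gave 3.79 or 5.26.

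*Cdh19* and *Cdh11* had more reads than these genes and did not pass the threshold. *Cdh19*, a marker of SC precursors, had values of 3746, 3305 and 3430.3 against 3530.0, 3370.2 and 4693. The genotypes overlapped, with a change of 0.13 (95% confidence interval -0.18 to 0.45) that turned to -0.0165 without mutant replicate 3. Divided by the value of *Sox10*, *Cdh19* was at 0.297, 0.282 and 0.314 against 0.385, 0.577 and 0.687, with all mutant-labelled ratios above the controls (p = 0.1, exact permutation test, two-sided). The ratios of *Celsr1*, *Celsr2* and *Cdh1* went the other way. *Sox10* was itself lower in all mutant-labelled libraries (-0.71), so a gene with overlapping values such as *Cdh19* took a higher ratio by construction. *Cdh11* (OB-cadherin), a cadherin of mesenchymal cells, had 8787, 8458 and 7868 against 11795, 9709 and 11818, all mutant-labelled values above the controls at 0.40 (standard error 0.10, adjusted p = 0.0177), under the 2-fold limit. *Cdh7* had at most 34 reads in a library, and its change of -0.85 had a standard error of 1.30. Its values of 2.22, 10.4 and 19.0 against 24.7, 3.86 and 0 overlapped, and the sign turned without mutant replicate 3 (0.31).

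*Cdh5*, the endothelial cadherin, had values of 6626, 5965 and 4790.1 in the control-labelled and 6753, 7181 and 5486 in the mutant-labelled libraries. They overlapped, at 0.16 (95% confidence interval -0.17 to 0.50). All 10 endothelial markers had a fold change above 0, with a median of 0.51, and per 1000 of their sum *Cdh5* was at 292, 325 and 314 against 288, 221 and 206 (p = 0.1, exact permutation test, two-sided). The protocadherin of endothelial cells, *Pcdh12*, had 696, 616 and 607 against 532, 602 and 333, a change of -0.43 (adjusted p = 0.18). On the same endothelial scale *Pcdh12* was at 30.6, 33.5 and 39.8 against 22.7, 18.6 and 12.5 (p = 0.1, exact permutation test, two-sided). Against the marker sum, all 3 mutant-labelled values of both vascular genes lay below the controls, narrowly so for *Cdh5* (288 against 292). The marker sum was itself higher in all mutant-labelled libraries, so a gene that was higher by less than the sum took a lower value by construction.

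Of 4 atypical and 7-domain cadherins, 3 were tested and 1 rose (33.3%, beside 13.9% of all genes). This was *Cdh17* (GSMG0026286, chromosome 4, 11758156 to 11817904), the liver-intestine cadherin. Its values were 82.2, 46.3 and 68.4 in the control-labelled and 174, 261 and 261 in the mutant-labelled libraries, a 3.53-fold higher mean and 1.82 on the log2 scale (standard error 0.33, adjusted p = 0.00332). The lowest mutant-labelled library held over 2 times the value of the highest control. *Cdh13* (T-cadherin), which is held by a lipid anchor, had 1009, 729 and 682 against 548, 1071 and 945. It overlapped at 0.05 (standard error 0.26), and its sign depended on single libraries, from -0.14 without mutant replicate 2 to 0.34 without mutant replicate 1. *Cdh26* overlapped as well, with 35.5, 44.4 and 10.1 against 3.64, 72.4 and 13.8 at -0.62 (standard error 1.04), and turned to 0.32 without mutant replicate 1.

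*Cdh23* and *Pcdh15*, which form the tip link of hair cells in the inner ear, both rose from few reads (beside 13.9% of all genes). *Cdh23* held 14, 16 and 15 reads in the control-labelled and 62, 84 and 60 in the mutant-labelled libraries, or values of 15.5, 15.1 and 19.0 against 45.1, 81.0 and 59.3. They did not overlap, and the change was 1.81 (standard error 0.46, adjusted p = 0.0169). *Pcdh15* had 4, 18 and 0 reads against 60, 37 and 22, values of 4.44, 17.0 and 0 against 43.6, 35.7 and 21.8, and a change of 2.86 with an unadjusted p of 0.0247 in limma (standard error 1.05, adjusted p = 0.065). The call of *Pcdh15* was lost without control replicate 3 (1.75), mutant replicate 1 (2.65) or mutant replicate 2 (2.79), in edgeR (2.19; DESeq2 gave 2.21) and with 0.1 added before the log (4.04). It held with 10 added (1.44), and the change was 3.84 without control replicate 2. No setting or left-out library ended the call of *Cdh23*.

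The delta protocadherins, whose tails bind protein phosphatase 1 or regulators of actin, had 6 of 9 genes above 0. Of these 9 genes, 2 rose (22.2%, beside 13.9% of all genes) and none fell, and the median was 0.74, beside 0.03 over all genes. *Pcdh19* (GSMG0042831, chromosome X, 133582863 to 133688993), the X-linked gene mutated in a form of epilepsy, had values of 54.4, 24.6 and 35.5 in the control-labelled and 82.2, 223 and 164 in the mutant-labelled libraries, 1.97 on the log2 scale (standard error 0.48, adjusted p = 0.0136). *Pcdh11x*, X-linked as well, had 155, 101 and 100.1 against 193, 225 and 457, at 1.21 (standard error 0.37, adjusted p = 0.033). Mutant replicate 3 stood above the other libraries in *Pcdh11x*, and without it the change was 0.83, under the limit. The genotypes were not matched in sex, so both genes were also read within the libraries with and without *Xist* reads. Among libraries with *Xist* (control replicates 1 and 3, mutant replicate 2), *Pcdh19* was at 54.4 and 35.5 against 223 and *Pcdh11x* at 155 and 100.1 against 225. Among those without (control replicate 2, mutant replicates 1 and 3), *Pcdh19* was at 24.6 against 82.2 and 164 and *Pcdh11x* at 101 against 193 and 457. The mutant-labelled values were the higher ones in each case, but each split left 1 library in an arm, and the part of sex in these results was not tested.

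*Pcdh1*, *Pcdh17* and *Pcdh18* lay above the controls in every mutant-labelled library without passing the 2-fold limit. *Pcdh1* had 706, 600.0 and 555 against 1338, 1057 and 1193 (0.95, standard error 0.15, adjusted p = 0.00179). *Pcdh17*, which arranges synapses in the brain, had 1202, 867 and 968 against 1653, 2428 and 1605 (0.89, standard error 0.19, adjusted p = 0.00785). Both passed the limit without control replicate 1 (1.04 and 1.02) and when libraries were scaled to the same total (1.11 and 1.05), and *Pcdh1* without mutant replicate 2 (1.03). *Pcdh18* had 2138, 1458 and 1481 against 2911, 2943 and 2517 (0.74, standard error 0.16, adjusted p = 0.00838). *Pcdh7*, one of the members with the most reads, differed less, with 8153, 9199.5 and 8985 against 9792, 10150.2 and 11464 (0.25, adjusted p = 0.0744).

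*Pcdh9* and *Pcdh10* went the other way from those genes. *Pcdh9* had values of 1989, 2278 and 2361 in the control-labelled and 1208, 947 and 1289 in the mutant-labelled libraries, all lower, at -0.95 (standard error 0.14, adjusted p = 0.00141). It lay just inside the 2-fold limit and passed it without control replicate 1 (-1.03) or mutant replicate 3 (-1.04) and with the same 75th percentile (-1.02), and 33 other genes overlap this long gene on its strand. *Pcdh10*, a regulator of synapse removal, had 1773, 1846 and 1528 against 1231, 1116 and 843, also all lower, at -0.70 (standard error 0.16, adjusted p = 0.0106). *Pcdh8* overlapped at -0.47 (adjusted p = 0.322).

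*Pcdh20* (GSMG0012730, chromosome 14, 88464747 to 88471397) was the protocadherin with the firmest rise. Its values were 573, 361 and 307 in the control-labelled and 1995, 1360.4 and 2008 in the mutant-labelled libraries. The lowest mutant-labelled value was more than 2 times the highest control, and the mean was 4.32-fold higher, or 2.14 on the log2 scale (standard error 0.25, adjusted p = 0.000401). It held from 242 to 2742 reads in a library and overlapped no other gene on its strand. Over the 6 libraries left out in turn its change stayed between 1.95 and 2.4.

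The clustered protocadherins, which give single neurons an identity through combinations of isoforms, lay lower as a group. Of the 17 *Pcdhb* genes on chromosome 18, 16 were tested, 6 fell (37.5%, beside 10.4% of all genes), none rose, and 15 were below 0 (48.4% of all genes), with a median of -0.82. The mutant-labelled values were below all controls in 9 of them, as in 23.3% of all genes, and overlapped in 7. The sum over the *Pcdhb* genes was 4099, 3586 and 3461 in the control-labelled and 2179, 2464 and 1931 in the mutant-labelled libraries, without overlap. These genes are related neighbors, and each lies within the combined *Pcdha* and *Pcdhg* entry on the same strand, so that reads can be split among them and the 16 genes are not independent measurements.

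*Pcdhb19* (GSMG0018287, chromosome 18, 37496991 to 37504127) had the largest change, with 476, 367 and 347 against 139, 194 and 79.1 (-1.60, standard error 0.33, adjusted p = 0.00682). *Pcdhb11* had 177, 217 and 147 against 109, 61.8 and 33.6 (-1.53, standard error 0.44, adjusted p = 0.0269). *Pcdhb5* had 326, 300.5 and 354 against 115, 123 and 163 (-1.30, standard error 0.23, adjusted p = 0.00295). None of the 3 genes overlapped between the genotypes, and *Pcdhb5* was the most even within them. *Pcdhb8* had 175, 163 and 252 against 78.6, 92.6 and 67.3 (-1.28, standard error 0.29, adjusted p = 0.0104). *Pcdhb9* had 289, 283 and 218 against 122, 143 and 114 (-1.05, standard error 0.24, adjusted p = 0.00956). *Pcdhb3* had 249, 195 and 187.5 against 116, 149 and 59.3 (-1.04, standard error 0.36, adjusted p = 0.0561). The calls of *Pcdhb9* and *Pcdhb3* sat at the 2-fold limit: *Pcdhb9* missed it without control replicate 1 (-0.98), control replicate 2 (-0.99) or mutant replicate 3 (-0.98) and *Pcdhb3* without control replicate 1 (-0.91) or mutant replicate 3 (-0.66). With all libraries, both missed it with the same total (-0.89 and -0.88) and with 10 added before the log (-0.998 and -0.97), and *Pcdhb3* also in edgeR and DESeq2 (-0.96 in each) and by its adjusted p. Without control replicate 1, 4 *Pcdhb* genes passed in place of 6.

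*Pcdhb20* was lower in all mutant-labelled libraries, with 414, 356 and 461 against 170.2, 295 and 179, at -0.97 (standard error 0.25, adjusted p = 0.0187), and passed the limit without control replicate 2 (-1.07) or mutant replicate 2 (-1.22). *Pcdhb2* had 101, 32.1 and 43.1 against 7.27, 23.2 and 39.6, with an overlap and a large error (-1.40, standard error 0.72). It passed without mutant replicate 3 (-1.91) and was at -0.76 without mutant replicate 1. *Pcdhb13* was the exception in direction, with 48.9, 34.0 and 48.2 against 59.6, 59.8 and 31.7 and a change of 0.16 (standard error 0.44) that was gone without control replicate 2 (-0.0036). The remaining *Pcdhb* genes had changes from -0.68 (*Pcdhb10*) to -0.28 (*Pcdhb17*). *Pcdhb1* had no reads in any library.

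The combined *Pcdha* and *Pcdhg* entry (GSMG0018295, chromosome 18, 36694473 to 37841961), which stands for 39 symbols, had the most reads of any member. Its values were 28697, 30753 and 31035 in the control-labelled and 23690.5, 24719 and 19638 in the mutant-labelled libraries. They did not overlap, but the change was small at -0.42 (standard error 0.11, adjusted p = 0.0158). Single *Pcdha* and *Pcdhg* genes cannot be told apart in it.

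**Figure D3:**
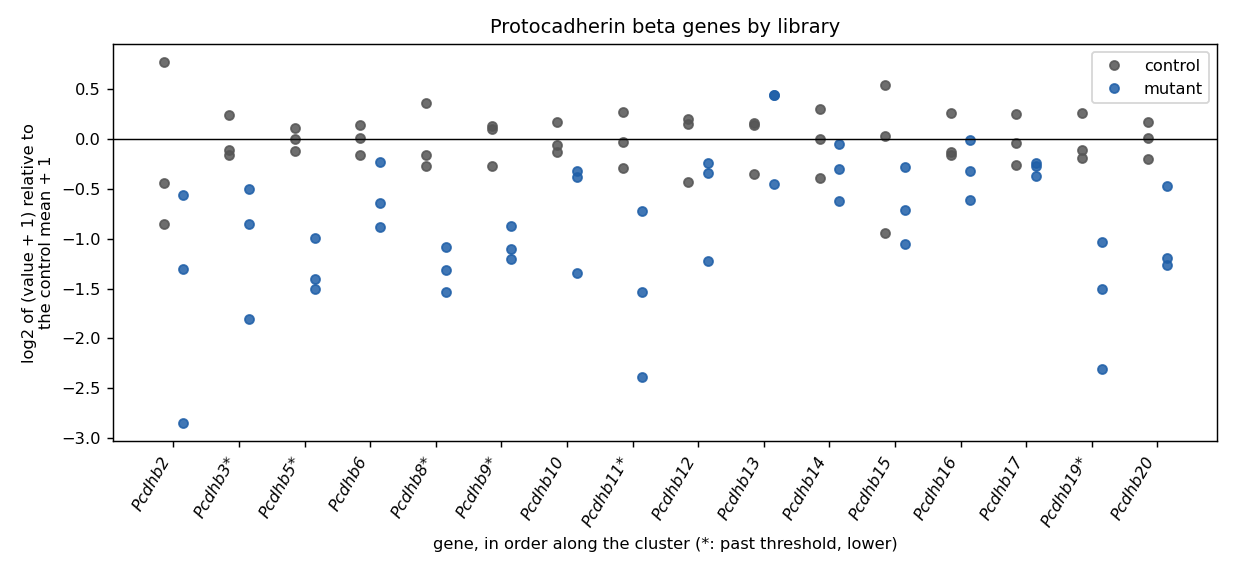
Log2 of value plus 1 relative to the control mean plus 1 for the 16 tested *Pcdhb* genes in their order along the cluster. Grey points are the 3 control-labelled and blue points the 3 mutant-labelled libraries, and asterisks mark the 6 genes that fell. *Pcdhb13* alone has mutant-labelled points above its highest control.

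Among the *Fat* and Dachsous genes, 1 of 6 rose (16.7%, beside 13.9% of all genes) and none fell. Fat4 and Dachsous1 form a receptor and ligand pair that passes polarity signals between neighboring cells. *Dchs1* had 451, 268 and 196 against 524, 511 and 449 (0.78, standard error 0.29, adjusted p = 0.0683) and *Fat4* 629.6, 369 and 251 against 539, 531 and 539 (0.47, adjusted p = 0.264). In both, the highest control was replicate 1, and without it *Dchs1* passed the threshold at 1.10. *Dchs2* (GSMG0067542, chromosome 3, 83127948 to 83357209) had 174, 156 and 79.8 against 257, 333 and 250.2, without overlap, and rose by 1.10 (standard error 0.33, adjusted p = 0.0318). Its call was lost without control replicate 3 (0.75) or mutant replicate 2 (0.97). *Fat1*, which restrains growth through the Hippo pathway, had 4351, 4829 and 5336 against 4312, 3396 and 3099, all lower, at -0.43 (standard error 0.14, adjusted p = 0.042). *Fat3* overlapped, with 557, 461 and 356 against 364, 578 and 524 at 0.09 (standard error 0.24), and its sign turned without control replicate 3 (-0.0805) or mutant replicate 2 (-0.0455). *Fat2* overlapped with 33.3, 64.3 and 2.53 against 105, 38.6 and 63.3 at 1.70 (standard error 1.01), which passed without control replicate 2 (2.55) and was 0.45 without control replicate 3 and 1.04 in both edgeR and DESeq2.

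The cadherins *Cdh8*, *Cdh9*, *Cdh12*, *Cdh16* and *Cdh18*, and *Pcdhb1*, stayed under a mean of 10 in both genotypes and were not tested. *Cdh8*, *Cdh9*, *Cdh12* and *Cdh18* are type II cadherins known from neurons, and none of the 5 cadherins held more than 18 reads in a library. With no minimum mean, the counts of members past the threshold were 9 higher and 11 lower, as with it.

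Summed over all 62 members, the value was 119610.0, 124990.0 and 127783 in the control-labelled and 93161, 83309.9 and 81724 in the mutant-labelled libraries, without overlap (p = 0.1, exact permutation test, two-sided). *Cdh1* made up 11.2, 12.1 and 15.4 percent of the sum in the controls and 7.06, 0.57 and 3.27 percent in the mutants, and the 3 *Celsr* genes 18.4, 20.8 and 20.04 against 4.89, 2.85 and 3.29 percent. Without these 4 genes, which were picked after their values were seen, the sums were 84095, 83791 and 82480.2 against 82027, 80459 and 76365, or 83455 ± 858 and 79617 ± 2923 (SD, n = 3 each). These sums count reads, so that long and abundant genes weigh most in them. The total was smaller in the mutant-labelled libraries, so a gene that was lower by less than the total took a larger share by construction. Larger shares in all mutant-labelled libraries were taken by *Cdh11*, *Pcdh7*, *Cdh5*, *Cdh19*, *Cdh2* (whose own change was -0.25) and the sum of the members not plotted by name (p = 0.1 for each, exact permutation test, two-sided). The shares were 7.35, 6.77 and 6.16 against 12.7, 11.7 and 14.5 percent for *Cdh11* and 6.82, 7.36 and 7.03 against 10.5, 12.2 and 14.0 percent for *Pcdh7*. The combined *Pcdha* and *Pcdhg* entry was at 24.0, 24.6 and 24.3 against 25.4, 29.7 and 24.0 percent.

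**Figure D4:**
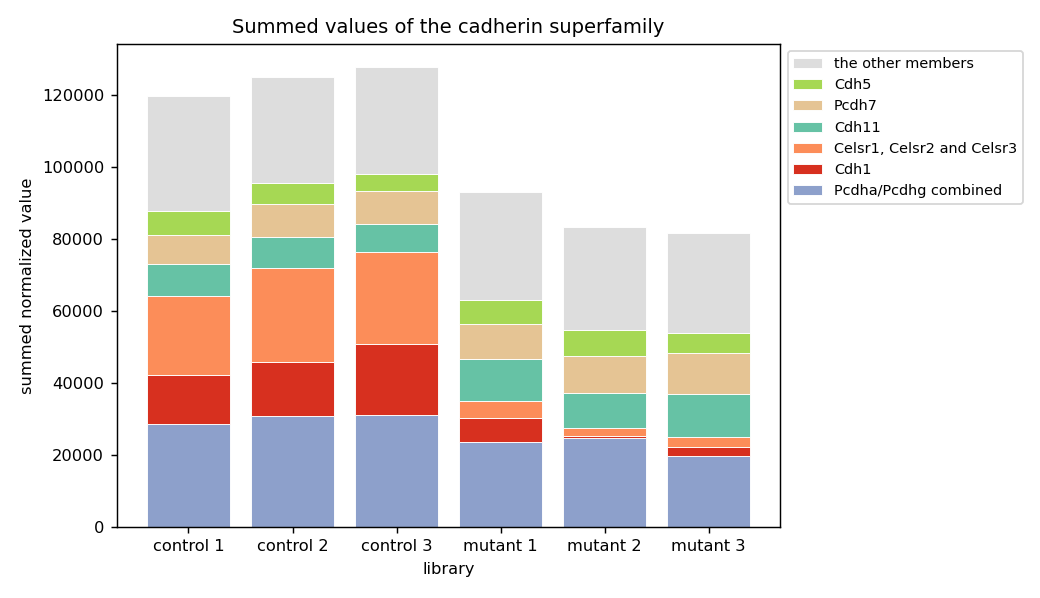
Summed normalized value of all members in each library, as stacked bars from 0, split into the members with the most reads and the rest. The mutant-labelled bars are shorter, from 81724 to 93161 against 119610 to 127783, and the segments of *Cdh1* and of *Celsr1*, *Celsr2* and *Celsr3* account for most of the gap.

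The proteins that cadherins work with were read from 3 lists. Of 19 catenins and adherens junction partners, none rose and 3 fell (15.8%, beside 10.4% of all genes), with a median of 0.06. Among the catenins that did not pass, beta-catenin (*Ctnnb1*) was at -0.24, p120-catenin (*Ctnnd1*) at 0.06, plakoglobin (*Jup*) at 0.16 and alpha-E-catenin (*Ctnna1*) at -0.45 on the log2 scale, with adjusted p-values of 0.0598, 0.688, 0.344 and 0.0159. The mutant-labelled values of *Ctnnb1* and *Ctnna1* lay below all controls, and those of *Ctnnd1* and *Jup* overlapped with them. The genes that fell were *Arvcf*, a relative of p120-catenin that binds cadherin tails, *Ctnna3*, an alpha-catenin best known from heart, and *Adam10*, the protease that cuts the outer part off E-cadherin and N-cadherin. *Arvcf* had 6226, 7057 and 7863 against 1842, 1114 and 1054 (-2.44, standard error 0.21, adjusted p = 7.2e-05). *Ctnna3* had 695, 845 and 855 against 261, 82.0 and 182 (-2.33, standard error 0.38, adjusted p = 0.002). *Adam10* had 9535, 9611 and 9379.9 against 3689, 3033 and 3717 (-1.46, standard error 0.10, adjusted p = 3.03e-05). None of the 3 overlapped between the genotypes, and *Ctnna3* had the same order of mutant-labelled libraries as *Cdh1*. Without mutant replicate 3, 4 genes of this list passed.

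Of 15 partners in planar polarity and Fat-Dachsous signaling, 1 rose and 3 fell (6.67 and 20%, beside 13.9 and 10.4% of all genes), with a median of -0.17. *Fzd3*, the Frizzled receptor that acts with Celsr proteins in axon guidance, had 1340.3, 1764 and 1978 against 764, 614 and 761 (-1.24, standard error 0.17, adjusted p = 0.000915). *Fuz*, an effector of polarity in cilia, had 855, 975 and 967 against 481, 497 and 366 (-1.07, standard error 0.16, adjusted p = 0.00151). *Prickle2*, a cytoplasmic core protein of the pathway, was at -1.08 (standard error 0.35, adjusted p = 0.0403) and *Intu*, another cilium effector, at 1.01 (standard error 0.24, adjusted p = 0.012). These calls sat close to the 2-fold limit and 3 of them were lost when 1 library was left out. *Prickle2* missed the threshold without control replicate 1 (-0.79), *Fuz* without mutant replicate 3 (-0.93) and *Intu* without control replicate 2 (0.94), control replicate 3 (0.98) or mutant replicate 1 (0.97). With all libraries, *Prickle2* (-0.92) and *Fuz* (-0.90) missed it with the same total, and *Intu* with the same 75th percentile (0.95) and with 10 added before the log (0.95). Without control replicate 1, mutant replicate 1 or mutant replicate 2, 5 genes of this list passed. The core protein *Vangl2*, which sits opposite Frizzled in the pathway, was at -0.39 (adjusted p = 0.0804) and *Scrib* at -0.94 (adjusted p = 0.00299). *Prickle1* was at 0.99 (adjusted p = 0.00185), the opposite sign of *Prickle2*.

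Of 8 known repressors of *Cdh1*, 4 rose and none fell, beside 13.9% and 10.4% of all genes, with a median of 1.0. The 4 genes were *Snai1* (1.21), *Snai2* (1.67), *Twist1* (1.02) and *Twist2* (1.67). *Snai2* and both *Twist* genes were named by the study from these libraries, so the list is not independent evidence of its direction. *Snai1* had 163, 53.9 and 100.1 against 236, 289 and 162, where mutant replicate 3 was just below control replicate 1, and an adjusted p of 0.0565 in limma. Its call was lost without control replicate 2 (0.80), mutant replicate 1 (1.17) or mutant replicate 2 (1.02). *Twist1* missed the limit without control replicate 3 (0.93) or mutant replicate 2 (0.89), and with the same 75th percentile (0.95). *Zeb1* had 1243, 775 and 755 against 1624, 1569.8 and 2201, just under the limit at 0.98 (adjusted p = 0.00914), and *Zeb2*, which has a role of its own in SC maturation, overlapped at 0.09 (adjusted p = 0.674). *Tcf3* and *Tcf4* were at -0.42 and 0.29 (adjusted p = 0.0302 and 0.114). With the same total or without control replicate 1, 5 genes of this list passed the threshold.

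**Figure D5:**
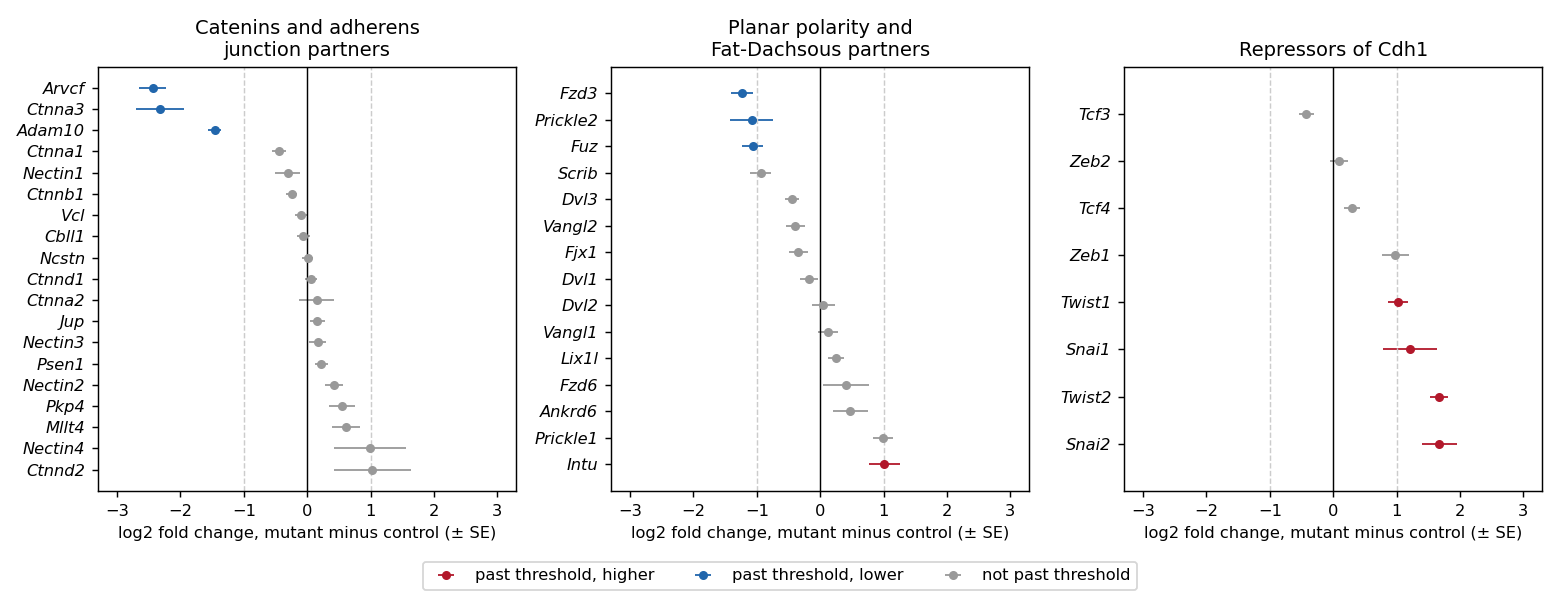
Log2 fold change (mutant minus control, points) with standard error (bars) for the genes of 3 partner lists, from limma on 3 control-labelled and 3 mutant-labelled libraries. Dashed lines mark a 2-fold change. *Arvcf*, *Ctnna3* and *Adam10* stand apart from the other adherens junction genes, which lie between -0.45 and 1.03.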

How the data were processed

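The authors made poly-A RNA-seq libraries, mapped paired-end reads to mm10 with STAR 2.4.0, counted those on constitutive parts of FAST DB genes and divided the counts by DESeq2 size factors, and they deposited this signal per gene for 6 libraries without an expression filter. Dividing by the worth of 1 read gave whole numbers for 99.9983 to 100% of the values in a library (tolerance 0.001), which served as reads in edgeR and DESeq2. Between 74.9 and 76.2% of values of 1 to 20 reads were even, so mates of a pair were often counted separately and counting error is understated.

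log2(value + 1) of the 25802 genes with a mean of at least 10 in a genotype was fitted with limma (lmFit, eBayes with trend) as mutant minus control. The threshold (unadjusted p at or under 0.05, at least 2-fold) is that of the paper, and p-values were adjusted by the Benjamini-Hochberg method. Single values such as ratios and sums were compared with exact two-sided permutation tests over libraries. The members, partner lists and marker lists were chosen with earlier results of these data known. Values in every library are given for members past the threshold, the 8 with the most reads, *Cdh1*, *Cdh2* and those whose call or direction changed under an alternative.

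Alternatives were pseudocounts of 0.1 and 10, no minimum mean or one of 50, scaling to the same total, the same 75th percentile or TMM factors, eBayes without trend, adjusted p-values, edgeR's quasi-likelihood test, DESeq2, a block for the replicate number, and each of the 6 libraries left out. Ratios to *Sox10* and to marker sums were chosen after seeing the data. Promoter windows came from RefSeq. R 4.3.3, limma 3.58.1, edgeR 4.0.16, DESeq2 1.42.0 and Python 3.11.15 with pandas 2.3.3 and matplotlib 3.10.9 were used. RNA editing and splicing were not analysed here. Some Schwann cell marker genes outside the list of 8 are not reported here.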

Additional observations from a re-analysis of the deposited data

How the results depend on the processing

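Of the 20 members past the threshold, 15 kept the call in every setting that included them, and none changed direction. *Pcdhb3*, *Pcdhb9*, *Pcdh15*, *Dchs2* and *Pcdh11x* lost the call in at least 1 setting, and 9 other members gained it in at least 1. Over the 12 settings that use all libraries, 8 to 11 members rose and 9 to 13 fell, the latter 13 with the same 75th percentile and 9 with the same total. Over the 6 libraries left out in turn, 7 to 12 rose and 10 to 12 fell. The *Pcdhb* count was 4 with a pseudocount of 10 or the same total, 4 without control replicate 1, and 7 with the same 75th percentile. Scaling to the same total moved the median of all genes to 0.19 and scaling to the same 75th percentile to -0.03.

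The replicate numbers did not pair the samples (correlations of deviations of -0.06, -0.06 and 0.0089 between equal numbers), and a block for the replicate number gave 9 members higher and 11 lower, as without it.

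Members not past the threshold turned direction in few settings, and the cause was not tested. *Cdh13* was at -0.0196 with the same 75th percentile and at -0.14 to 0.34 over the left-out libraries. Over these, *Cdh7* ran from -2.03 to 0.31, *Cdh19* from -0.0165 to 0.22, *Cdh26* from -1.67 to 0.32, *Pcdhb13* from -0.0036 to 0.46 and *Fat3* from -0.0805 to 0.29. Tested members with under 100 reads in each library were *Cdh7*, *Cdh22*, *Cdh23*, *Cdh26*, *Pcdh15*, *Pcdhb2*, *Pcdhb12* and *Pcdhb13*.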
